A study of Mus musculus with 9 samples.

Results

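Differentiating progenitors of the embryonic mouse cortex were compared with the midpoint of the populations that come before and after them in the neurogenic lineage. The midpoint of a miRNA is the mean of its log2 level in proliferating progenitors and its log2 level in newborn neurons, and the log2 departure is the level in differentiating progenitors minus that midpoint. All 9 libraries of the series entered, 3 for each population. The miRNAs were all those carried by rows with a database identifier, 1059 mature names of 1281 names in the table, with the row of the largest total kept for each name. The comparison asks which miRNAs lie away from that midpoint in progenitors committed to making neurons. A miRNA called by it can still have a level between those of the other populations. The departure is proportional to the difference between the change at the first step of the lineage and the change at the second.

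The cells came from the lateral cortex of C57BL/6 embryos at embryonic day 14.5, freed of meninges, ganglionic eminences and olfactory bulb, dissociated with papain and sorted by the fluorescence of endogenous reporters. Proliferating progenitors are titled RminusGminus, differentiating progenitors RplusGminus and newborn neurons Gplus. All 3 populations share the strain, age and tissue, and the labels name neither the reporter genes nor the number of embryos behind a library. The labels do not say that the 3 libraries of a population came from separate litters, so p-values measure the spread between these libraries, which may be technical. The negative gate holds any cell without a reporter, so the proliferating population is defined by the absence of signal. In sorted bulk samples, fewer cells of a type and less RNA per cell cannot be told apart.

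A miRNA is a short RNA that guides Argonaute proteins to messenger RNAs, chiefly by pairing of its seed, the bases near its 5′ end. The level of a mature miRNA follows from transcription of its precursor, processing by Drosha and Dicer, and decay, so members of 1 transcript can differ in level. In the developing cortex miR-9 and let-7 are abundant, miR-124 and miR-7 are known from neurons, and miR-451 and miR-144 are made by red blood cells.

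Between 821155 and 3856484 counts per library fell on these miRNAs, and 188 miRNAs passed the filter on low counts. Levels are given as CPM, miRNA counts of a library brought to a common total and scaled by TMM factors. The labelled populations were checked against marker lists. The summed CPM of 7 neuron-associated miRNAs was 4141 to 5093 in proliferating progenitors, 6549 to 7768 in differentiating progenitors and 23534 to 28452 in neurons, most of it miR-7a-5p (mean 22043 CPM in neurons). miR-7a-5p is itself among the calls below. miR-128-1-5p, a member of the list, had means of 7.76, 10.5 and 8.65 CPM in the same order. miR-129-5p is in the wider neuronal list used further below but not in this sum. It went the other way, with means of 689, 342 and 213 CPM. The 5 neural progenitor markers summed to 7745 to 8386, 7101 to 8992 and 3998 to 7567 CPM, so that differentiating progenitors overlapped with both other populations. The 2 detected erythroid markers summed to 260.5 to 354 CPM in proliferating progenitors, against 0.881 to 2.86 in differentiating progenitors and 0 to 2.31 in neurons. Mural or mesenchymal markers summed to 439 to 579.9, 40.0 to 44.9 and 19.2 to 36.4 CPM over the 3 populations. Most of that sum was miR-143-3p, which is itself among the calls below. Of the listed members 7 of 7 neuron, 5 of 5 progenitor, 2 of 3 erythroid and 5 of 6 mural markers had a count. All neuron and progenitor members were 5p arms, which for miR-124 is the passenger arm. The 3p arms of miR-124, miR-128, miR-25 and miR-92b were therefore not in these sums.

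The mature sequences of miRNAs that departed from the midpoint, and of tested miRNAs with the same seed, show which departures are shared by molecules with the same targeting region. RefSeq (GRCm38.p6) held 163 of the 188 tested miRNAs and 12 of the 15 called below. Sequences are written 5′ to 3′ with the seed, bases 2 to 8, in capitals.
let-7c-5p: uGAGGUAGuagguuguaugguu
let-7b-5p: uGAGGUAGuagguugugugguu
let-7d-5p: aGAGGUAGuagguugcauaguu
let-7e-5p: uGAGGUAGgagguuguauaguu
miR-449c-5p: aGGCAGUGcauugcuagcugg
miR-449a-5p: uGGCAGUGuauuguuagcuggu
miR-146a-5p: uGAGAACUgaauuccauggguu
miR-146b-5p: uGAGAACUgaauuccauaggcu
miR-7a-5p: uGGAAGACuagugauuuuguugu
miR-7b-5p: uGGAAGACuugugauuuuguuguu
miR-451a: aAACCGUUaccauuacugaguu
miR-139-5p: uCUACAGUgcacgugucuccag
miR-217-5p: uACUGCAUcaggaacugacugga
miR-434-5p: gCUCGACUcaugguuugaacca
miR-378c: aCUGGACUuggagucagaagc
miR-224-5p: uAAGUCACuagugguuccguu
The let-7 miRNAs share a single seed, and let-7b-5p differs from let-7c-5p only by A17G, counted from 1 at the 5′ end of let-7c-5p. miR-7b-5p differs from miR-7a-5p over the shared length by A10U. Reads of such close relatives may be divided between names by the counting, so their separate levels are uncertain.

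Few miRNAs were called away from the midpoint, and a miRNA that was not called is not thereby shown to lie at it. By the quasi-likelihood test of edgeR, adjusted by Benjamini-Hochberg over the 188, 15 miRNAs (7.98%) were called at an adjusted p under 0.05, 8 above the midpoint (4.26%) and 7 below (3.72%). At an unadjusted p under 0.05 there were 45 (23.9%). Of the 15, 8 departed at least 2-fold (4.26%). The split into above and below followed the scaling: with total counts it was 3 above and 5 below, and when totals left out miR-9-5p it was 3 and 12. By comparison, 30 miRNAs (16%) were called between differentiating and proliferating progenitors 87 (46.3%) between differentiating progenitors and neurons, and 56.4% of the 188 between neurons and proliferating progenitors in the same fit. The count of 15 became 7 without proliferating replicate 3, 8 without neuron replicate 1 and 9 without differentiating replicate 1. The median departure over the 188 was 0.02 on the log2 scale, and it moved to -0.10 when libraries were scaled to totals that leave out miR-9-5p.

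The 15 calls had 4 shapes. In 6 miRNAs the fitted level was highest in differentiating progenitors (let-7b-5p, let-7c-5p, let-7d-5p, miR-146a-5p, miR-449c-5p and miR-466i-5p). In miR-486-5p it was lowest there. For 2 miRNAs, miR-451a and miR-143-3p, the level already lay near that of neurons. The other 6 miRNAs (miR-217-5p, miR-139-5p, miR-7a-5p, miR-434-5p, miR-378c and miR-224-5p) lay nearer to proliferating progenitors than to neurons on the log2 scale. Of these, miR-7a-5p and miR-378c were nonetheless called against proliferating progenitors (edgeR adjusted p = 0.000944 and 0.0177). A level outside both ends was called against each end separately for 1 miRNA upward (0.532%), miR-449c-5p, and for 1 downward (0.532%), miR-486-5p. Without proliferating replicate 1 no miRNA was called above both ends, and without proliferating replicate 2 there were 6. The other 13 of the 15 were called away from the midpoint without being called outside both ends.

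**Figure D1:**
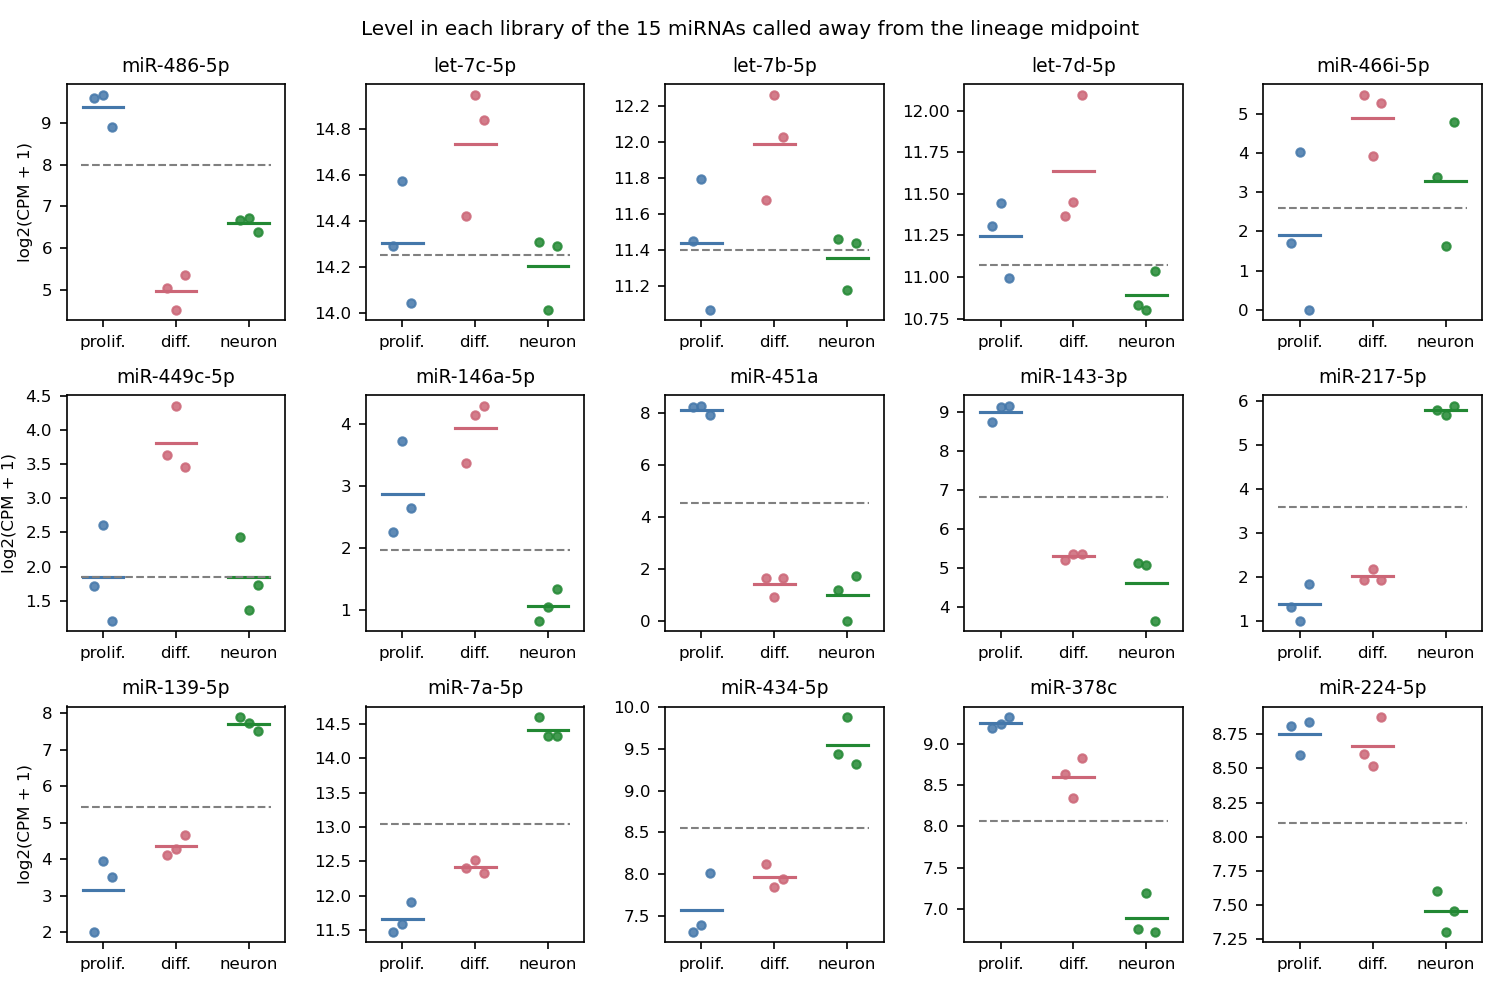
Each panel shows 1 called miRNA, with the 3 libraries of each population as points on a log2(CPM + 1) scale, the population means as short bars and the midpoint of the outer populations as a dashed line. The differentiating libraries of miR-486-5p lie below, and those of miR-449c-5p above, all 6 other libraries.

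miR-486-5p, the miRNA named in the title of the study and known from red blood cells and muscle, was the lowest in differentiating progenitors. Its CPM was 777, 810 and 476 in the proliferating libraries, 32.1, 22.02 and 39.9 in the differentiating libraries and 102, 105 and 83.0 in the neuron libraries. All differentiating libraries lay below all others, and the populations did not overlap. Differentiating progenitors lay below the midpoint (log2 departure -3.03, SE 0.24, 95% interval -3.53 to -2.53, edgeR adjusted p = 1.03e-07), or 8.15-fold. Against the arithmetic mean of both ends the value was -3.65. Its copies, listed as miR-486a-5p and miR-486b-5p, had counts within 2% of each other and were taken as 1 miRNA.

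The erythroid miR-451a departed beside it. Its CPM was 296, 305 and 239.6 in the proliferating libraries, while the differentiating libraries had 3, 1 and 3 counts and the neuron libraries 5, 0 and 3. Both later populations were thus at or near 3 counts, the number that a count of 0 allows, and only the proliferating libraries held a level well above it. The fitted departure was -3.31 (SE 0.56, edgeR adjusted p = 0.00092), but with so few counts its size depends on the fit and is no bound. Its neighbour miR-144-5p, whose mature sequence starts 176 bases away on chromosome 11, had 45, 48 and 16, then 1, 0 and 1, then 0, 0 and 0 counts. No departure is given for it, since the later populations were at or under 3 counts. From proliferating to differentiating progenitors the mean of miR-486-5p went from 688 to 31.3 CPM and that of miR-451a from 280 to 1.72 CPM. Between differentiating progenitors and neurons miR-486-5p differed (log2 difference of differentiating progenitors minus neurons -1.61, SE 0.25, edgeR adjusted p = 8.38e-05), and the erythroid markers were near 0 in both. The part of red blood cells in the low point of miR-486-5p was not tested.

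miR-143-3p, known from smooth muscle and mesenchymal cells, had the same early fall. Its level was 429.1, 559 and 565 CPM in proliferating, 35.7, 39.6 and 39.9 in differentiating and 34.2, 32.7 and 11.5 in neuron libraries. The proliferating libraries stood apart, and differentiating progenitors lay just above all neuron libraries. The departure was -1.64 (SE 0.25, edgeR adjusted p = 0.000564), and 88.7% of the log2 change over the lineage fell in the first step. The other mural markers were scarce. miR-145a-5p had 3, 6 and 4 counts in proliferating, 2, 0 and 0 in differentiating and 2, 1 and 1 in neuron libraries. The most counted of them, miR-199a-5p, had 6, 5 and 6, then 4, 1 and 5, then 6, 5 and 7 counts. miR-214-5p, the only arm of miR-214 counted here, had 0 in all 9. The part of mural cells in this result was not tested.

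Among the miRNAs above the midpoint, miR-449c-5p was the only one called above both ends. It belongs to the miR-34 and miR-449 family, known for its role in cells with motile cilia, and lies in an intron of Cdc20b on the same strand (chr13:113036008-113036028, plus strand, GRCm38). It had 3, 5 and 1 counts in the proliferating libraries, 16, 22 and 14 in the differentiating libraries and 17, 3 and 3 in the neuron libraries. In CPM this was 2.27, 5.11 and 1.31, then 11.4, 19.4 and 9.97, then 4.38, 1.58 and 2.31. The 3 differentiating libraries lay above all 6 others, at a low level throughout. It passed the filter on low counts only through these differentiating libraries, so its entry to the test depended on the peak itself. With no filter it was called as well. Its departure was 2.12 (SE 0.38, 95% interval 1.31 to 2.93, edgeR adjusted p = 0.00157).

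The neighbouring miR-449a-5p, 1541 bases away in the same cluster and with the same seed, did not have this peak. Its CPM was 12.9, 26.6 and 6.55 in proliferating, 70.0, 87.2 and 64.8 in differentiating and 140.5, 149.3 and 140.6 in neuron libraries. The populations did not overlap and each later one was higher. Its departure was 0.64 (95% interval 0.13 to 1.15, edgeR adjusted p = 0.11), so it was not called; the difference between the departures of both miRNAs was not tested. miR-34c-5p, of the same family, departed by 0.20 (SE 0.18, edgeR adjusted p = 0.528). miR-34a-5p and miR-34b-5p did not pass the filter, and miR-449b had 0 counts.

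miR-146a-5p, a miRNA induced by NF-kappaB signalling in immune cells, had the highest departure. It had 5, 12 and 4 counts in proliferating, 13, 19 and 26 in differentiating and 3, 2 and 2 in neuron libraries. Differentiating libraries overlapped with proliferating ones, and the neuron libraries were all at or under 3 counts. Without the level of its differentiating libraries it would not have passed the filter on low counts. Fitted, the departure was 2.43 (SE 0.38, edgeR adjusted p = 0.000564). Computed from the library values with the neurons set to 3 counts per library it was 2.26, a bound on the neuron side alone, since the progenitor counts were small too; against the arithmetic mean of both ends it was 1.85. The difference from proliferating progenitors alone was not called (log2 difference 1.08, SE 0.42, edgeR adjusted p = 0.0966), and that from neurons was (edgeR adjusted p = 1.8e-05).

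The other haematopoietic markers did not peak with it. miR-142a-5p, which defines blood lineage cells, had 34, 20 and 14 counts in proliferating, 3, 1 and 1 in differentiating and 0, 0 and 0 in neuron libraries. miR-155-5p had 23, 26 and 16, then 12, 21 and 9, then 32, 14 and 9 counts. miR-223-5p and miR-150-5p had at most 1 count in any library. The 5p arm was the only arm of each of these markers counted here, so the 3p arm of miR-223 was not seen. Summed with miR-146a-5p, the 5 markers ran from 47.1 to 60.3 CPM in proliferating, 20.7 to 37.0 in differentiating and 8.44 to 9.01 in neuron libraries. miR-146b-5p, with the seed of miR-146a-5p, was far more abundant, with means of 350, 381.2 and 579 CPM, and departed by -0.24 (95% interval -0.58 to 0.10, edgeR adjusted p = 0.364).

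Of the let-7 family, which restrains proliferation and growth genes such as Lin28 and Hmga2, 3 of 10 tested members were called, all above the midpoint. Over all tested miRNAs 4.26% were called above. Of the 10 members 9 had a positive departure, with a median of 0.25, beside 98 of 188 and 0.02 over all. When totals left out miR-9-5p it was 8 of 10 and 0.12, where the median over all was -0.10. let-7c-5p had 20038, 24393 and 16901 CPM in proliferating, 21928, 31547 and 29310 in differentiating and 20263, 16555 and 20050 in neuron libraries. Here 2 differentiating libraries lay above all others and replicate 1 lay within the proliferating range. let-7c-5p departed by 0.49 (SE 0.13, edgeR adjusted p = 0.0345), or 1.40-fold.

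let-7b-5p shares a transcript region with let-7c-5p on chromosome 15, where their mature sequences start 709 bases apart in an exon of Lncppara (chr15:85707325-85707346 for let-7b-5p, plus strand). It had 2800, 3555 and 2144 CPM in proliferating, 3277, 4914 and 4179 in differentiating and 2816, 2310 and 2775 in neuron libraries. Again replicates 2 and 3 of the differentiating progenitors lay above all others and replicate 1 did not. The departure was 0.59 (SE 0.15, edgeR adjusted p = 0.0276). let-7c-5p is also made from chromosome 16, in an intron of Mir99ahg, 732 bases from miR-99a-5p. That neighbour departed by 0.44 (SE 0.13, edgeR adjusted p = 0.0514), just short of the threshold.

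let-7d-5p, from an exon of the long noncoding RNA 6720427I07Rik (chr13:48536078-48536099, minus strand), was called as well. It had 2533, 2783 and 2037 CPM in proliferating, 2641, 2797 and 4370 in differentiating and 1824, 1786 and 2103 in neuron libraries. Replicate 3 of the differentiating progenitors was the highest, and the other 2 lay within or just above the proliferating range. The departure was 0.60 (SE 0.15, edgeR adjusted p = 0.0276), and without differentiating replicate 3 it was 0.29 (edgeR adjusted p = 0.229). Its cluster neighbours let-7a-5p and let-7f-5p departed by 0.34 and 0.15, with edgeR adjusted p-values of 0.099 and 0.333.

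The 7 members that were not called ranged from -0.03 to 0.34. let-7a-5p, given above, and miR-98-5p, at 0.31 (95% interval 0.05 to 0.56, edgeR adjusted p = 0.121), had intervals that lay above 0. let-7e-5p departed by -0.03 (95% interval -0.30 to 0.25) and let-7g-5p by 0.04 (-0.18 to 0.26), with edgeR adjusted p-values of 0.905 and 0.842. let-7i-5p, the most abundant of the family, departed by 0.19 (-0.01 to 0.40, edgeR adjusted p = 0.239). None of the 3 called members was called against proliferating progenitors alone, where edgeR adjusted p-values were 0.0514 for let-7b-5p, 0.0732 for let-7c-5p and 0.143 for let-7d-5p. All 3 were called against neurons, with edgeR adjusted p-values of 0.00764, 0.00935 and 0.00215. Without differentiating replicate 3 none of the 3 was called, nor with total counts.

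miR-466i-5p, of a rodent family with many near-identical copies whose reads may be divided between names, was the least even of the calls. Its counts were 3, 15 and 0 in proliferating, 61, 16 and 53 in differentiating and 37, 4 and 35 in neuron libraries. The populations overlapped, and replicate 2 was the highest proliferating library and the lowest in both other populations. It departed by 1.94 (SE 0.58, edgeR adjusted p = 0.0477), and it was called in 6 of 19 alternative settings. Of the other 5 tested members of the miR-297, miR-466, miR-467 and miR-669 families none was called.

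The miRNAs below the midpoint that rose mainly at the second step included miR-7a-5p, a miRNA of neurons and endocrine cells encoded in an intron of Hnrnpk (chr13:58392841-58392863, minus strand) and in a second precursor on chromosome 7. It had 2845, 3087 and 3852 CPM in proliferating, 5408, 5880 and 5126 in differentiating and 24861, 20650 and 20616 in neuron libraries. The populations were fully separate and differentiating progenitors lay nearer to the proliferating end than to the neuron end. The departure was -0.63 (SE 0.12, 95% interval -0.89 to -0.37, edgeR adjusted p = 0.00274), and 27.1% of the log2 change of the lineage fell in the first step. miR-7b-5p, with the same seed, went from 33.3 to 137.8 to 1159 CPM on average and departed by -0.52 (SE 0.16, edgeR adjusted p = 0.0514), which missed the threshold.

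miR-139-5p, in an intron of Pde2a (chr7:101475382-101475403, plus strand), had 3.03, 14.3 and 10.5 CPM in proliferating, 16.4, 18.5 and 24.2 in differentiating and 236, 211 and 181.4 in neuron libraries. Differentiating libraries lay above all proliferating libraries and far under all neuron libraries. It departed by -1.11 (SE 0.31, edgeR adjusted p = 0.0345), with 25.7% of the change in the first step. Its adjusted p rose above 0.05 when proliferating replicate 2 or 3, differentiating replicate 1 or 2, or neuron replicate 1 was left out, and also when rows without a database identifier were included.

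miR-217-5p, known from the pancreas and processed from a cluster with miR-216a and miR-216b, was close to absent before the neuron stage. It had 2, 1 and 2 counts in proliferating libraries and 4 in each differentiating library, or 2.86, 3.52 and 2.85 CPM, against 54.6, 50.1 and 57.6 CPM in neuron libraries. The neuron libraries stood apart from the rest, and only through them did miR-217-5p pass the filter on low counts. With no filter it was not called. The proliferating libraries were all at or under 3 counts, so the fitted departure of -1.62 (SE 0.44, edgeR adjusted p = 0.0414) is no bound. miR-216b-5p had 0, 0 and 0, then 2, 2 and 3, then 54, 18 and 20 counts, and miR-216a-5p had 0, 0 and 2, then 0, 0 and 0, then 11, 13 and 2. miR-217-5p is named here after its values were seen, as the only call outside the naming rule.

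miR-434-5p, encoded antisense to an exon of Rtl1 in the imprinted Dlk1-Dio3 region (chr12:109594528-109594549, plus strand), was the single call among 22 tested miRNAs of that region, a share near the 7.98% called over all 188. Its CPM was 158, 167 and 258 in proliferating, 276, 230 and 246 in differentiating and 692, 941 and 638 in neuron libraries. Differentiating libraries overlapped with proliferating libraries and not with neurons. The departure was -0.61 (SE 0.18, edgeR adjusted p = 0.0477), and 10 of 20 alternative settings did not call it. Of the 22 miRNAs of the region 21 were below the midpoint with each of 4 scalings, with a median of -0.35 and a range of -0.79 to 0.25. Over all 188 miRNAs 90 were below and the median was 0.02, or 117 below and -0.10 when totals left out miR-9-5p. The exception was miR-134-5p, at 0.25 (SE 0.21, edgeR adjusted p = 0.513). The region's miR-127-5p, 1674 bases from miR-434-5p, departed by -0.65 (95% interval -1.22 to -0.09) and miR-379-5p by -0.42 (-0.76 to -0.07), with edgeR adjusted p-values of 0.126 and 0.116. These miRNAs may share a transcript, so their common sign is not independent evidence.

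A pair of miRNAs above the midpoint fell mainly at the second step. miR-224-5p, in an intron of Gabre (chrX:72261085-72261105, minus strand), had 448.8, 387 and 457 CPM in proliferating, 388, 366 and 468 in differentiating and 193, 157 and 174 in neuron libraries. Both progenitor populations overlapped throughout, and every neuron library was lower. The departure was 0.57 (SE 0.14, edgeR adjusted p = 0.0189), with 6.2% of the change in the first step. Without differentiating replicate 1 or 3 it was not called. The same held with both scalings to total counts and with rows without a database identifier included.

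miR-378c, antisense within an intron of Samd4 (chr14:46954905-46954925, minus strand), had 587, 605 and 641 CPM in proliferating, 398, 325 and 455 in differentiating and 106.8, 144.6 and 104.5 in neuron libraries. The 3 populations did not overlap, and the level fell at each step. The departure was 0.55 (SE 0.15, edgeR adjusted p = 0.0345) from the midpoint of the logs, and 0.11 from the arithmetic mean of both ends, so that it rests on the log scale. It was called in 11 of 20 alternatives and in 3 of the 9 that left out 1 library, and with neither scaling to total counts. miR-378d departed by 0.49 (SE 0.16, edgeR adjusted p = 0.0739). The differentiating point estimate of miR-378c lay at 26.9% of the lineage change.

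**Figure D2:**
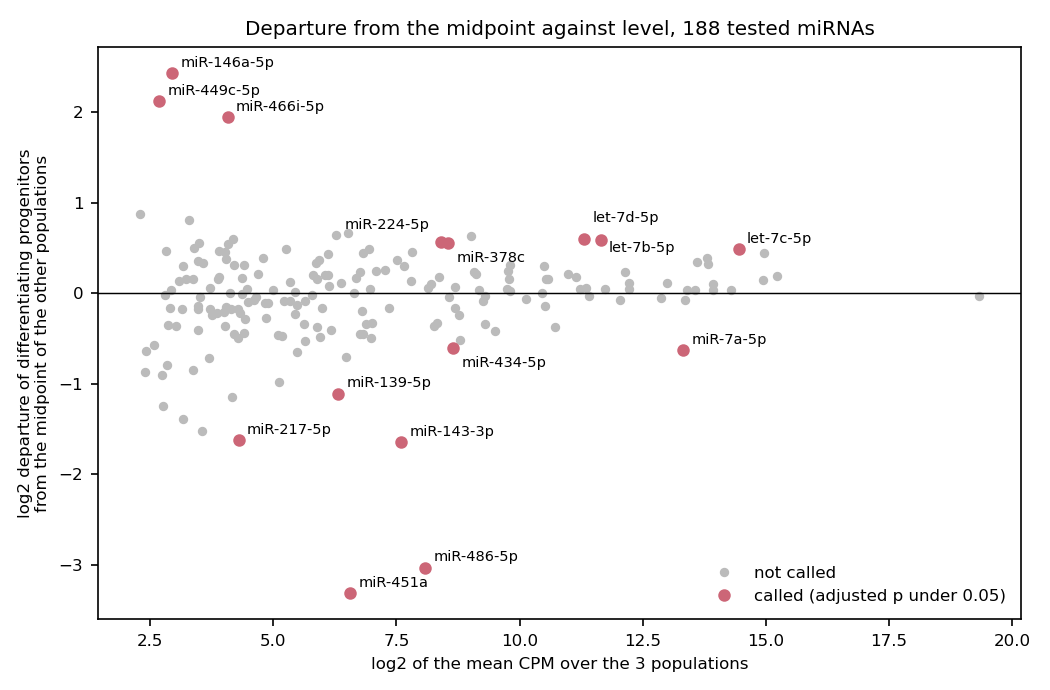
The log2 departure of each of the 188 tested miRNAs is plotted against the log2 of its mean CPM over the 3 populations, with the 15 called miRNAs in red. Departures of more than 2 on the log2 scale occurred at low or middle levels, and the called let-7 miRNAs and miR-7a-5p departed by under 0.7 at high levels.

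The 5 most abundant miRNAs ranged from the midpoint to a called departure. miR-9-5p, which held most of the counts, departed by -0.03 (95% interval -0.24 to 0.17, edgeR adjusted p = 0.846). let-7i-5p and let-7f-5p are given above, miR-99a-5p departed by 0.44 (95% interval 0.16 to 0.72), and let-7c-5p was the 1 called. Separate from the test, 2 miRNAs (1.06%) had all differentiating libraries above all 6 others and 3 (1.6%) had them below. Beside miR-449c-5p and miR-486-5p these were miR-325-5p above, and miR-188-5p and miR-33-5p below.

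miR-325-5p had 53.1, 52.1 and 53.7 CPM in proliferating, 65.0, 65.2 and 73.3 in differentiating and 51.2, 54.9 and 60.7 in neuron libraries. The separation was small, and the departure of 0.33 (95% interval -0.03 to 0.68, edgeR adjusted p = 0.249) was not called. miR-33-5p, encoded within the sterol regulator Srebf2, had 10, 15 and 9 counts, then 2, 5 and 6, then 20, 13 and 6, and departed by -1.24 (SE 0.41, edgeR adjusted p = 0.0739). miR-188-5p departed by -0.90 (SE 0.35, edgeR adjusted p = 0.116). These 3 miRNAs were singled out after their values were seen.

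Further lists gave no call, beside 7.98% called over all 188 miRNAs, of which 98 lay above the midpoint and 90 below. Of 8 tested neuronal miRNAs 3 lay above and 5 below the midpoint, from -1.39 in miR-128-2-5p to 0.30 in miR-128-1-5p, with a median of -0.44, and none was called. With each of the other 3 scalings 2 lay above and 6 below. miR-124-5p, the passenger arm of the best known neuronal miRNA, departed by 0.13 (95% interval -0.43 to 0.69) and miR-218-5p by 0.00 (-0.30 to 0.30), at edgeR adjusted p-values of 0.816 and 1. Of 11 tested members of miR-17-92 and its paralogs, known for driving proliferation, 8 lay above and 3 below (median 0.20), and 6 and 5 when totals left out miR-9-5p. The 5 neural progenitor markers were all above, from 0.07 to 0.66, but 4 of 5 with that scaling. The miR-99 and miR-100 list (3 tested, median 0.39), the miR-181 list (4, 0.11), the miR-15 and miR-16 list (4, 0.25), the miR-30 list (5, -0.07) and the X-linked miR-322 cluster (5, 0.05) held none either. The medians of the miR-181 and miR-322 lists turned to -0.02 and -0.07 with that scaling. miR-135a-5p and miR-135b-5p lay on opposite sides, at 0.63 (0.22 to 1.04) and -0.36 (-0.66 to -0.06), at edgeR adjusted p-values of 0.0514 and 0.116.

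**Figure D3:**
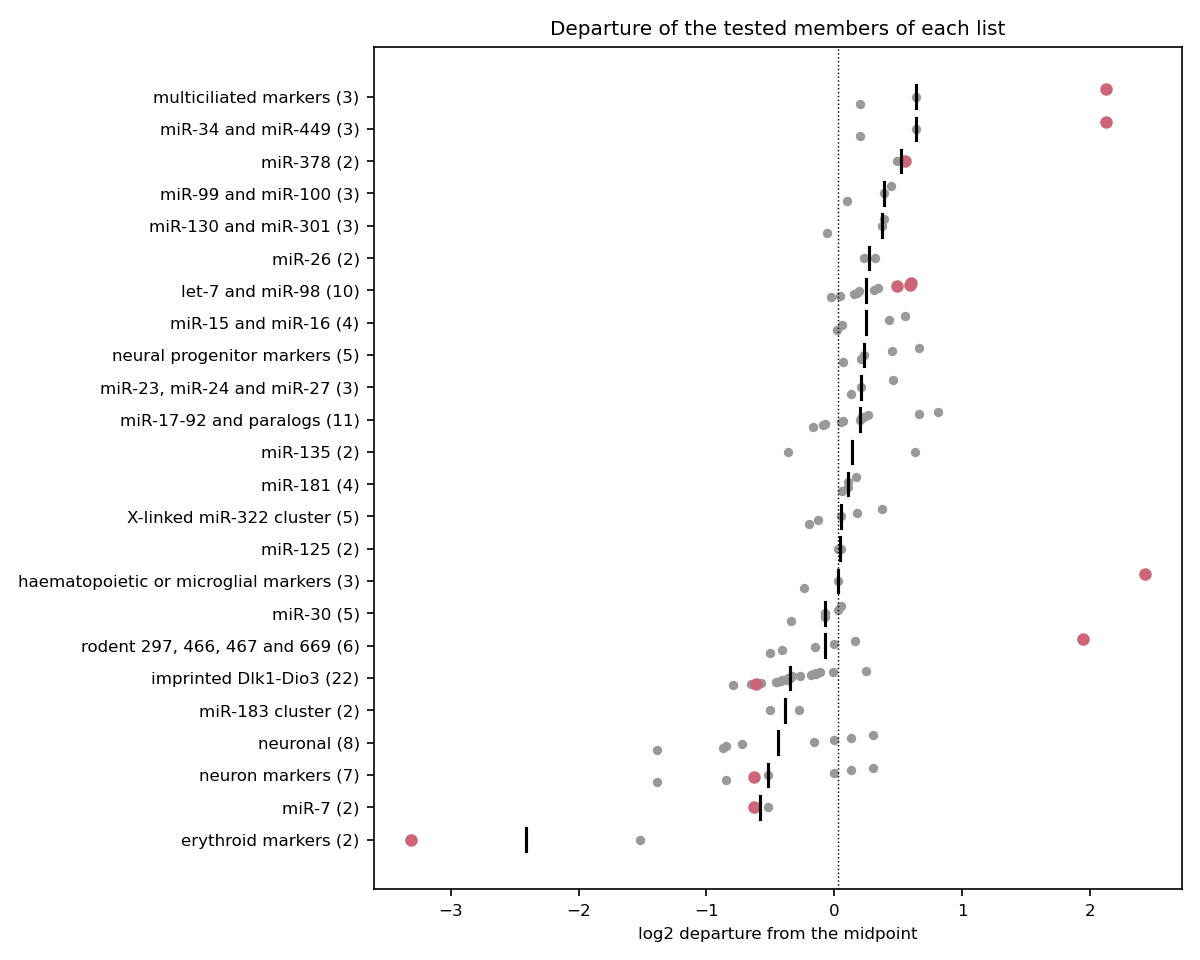
Points are the log2 departures of the tested members of each list, red where called, with the list median as a black bar, the number tested in brackets and the median of all 188 as a dotted line. Of the 22 imprinted miRNAs 21 lie left of 0. The median of the erythroid list includes miR-144-5p, and that of the haematopoietic or microglial list is the value of miR-142a-5p. The later counts of both miRNAs were at or under 3, so neither median is read.

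The calls differed in how much they depended on single libraries and settings. Of the 15, 6 were called in every alternative that tested them: miR-486-5p, miR-451a, miR-143-3p and miR-7a-5p in 20 of 20, miR-146a-5p in 19 of 19 and miR-449c-5p in 18 of 18. Of these, miR-146a-5p and miR-449c-5p passed the filter only through the differentiating libraries, where they were high. miR-451a passed it only through the proliferating libraries, where it was high. The other 9 were each lost in at least 1 alternative, and all 15 kept their direction in each. Over the alternatives the departure of miR-486-5p ran from -3.28 to -2.84, that of miR-7a-5p from -0.76 to -0.56 and that of miR-449c-5p from 1.79 to 2.47. let-7c-5p, miR-217-5p and miR-434-5p were called in 10 alternatives each.

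**Figure D4:**
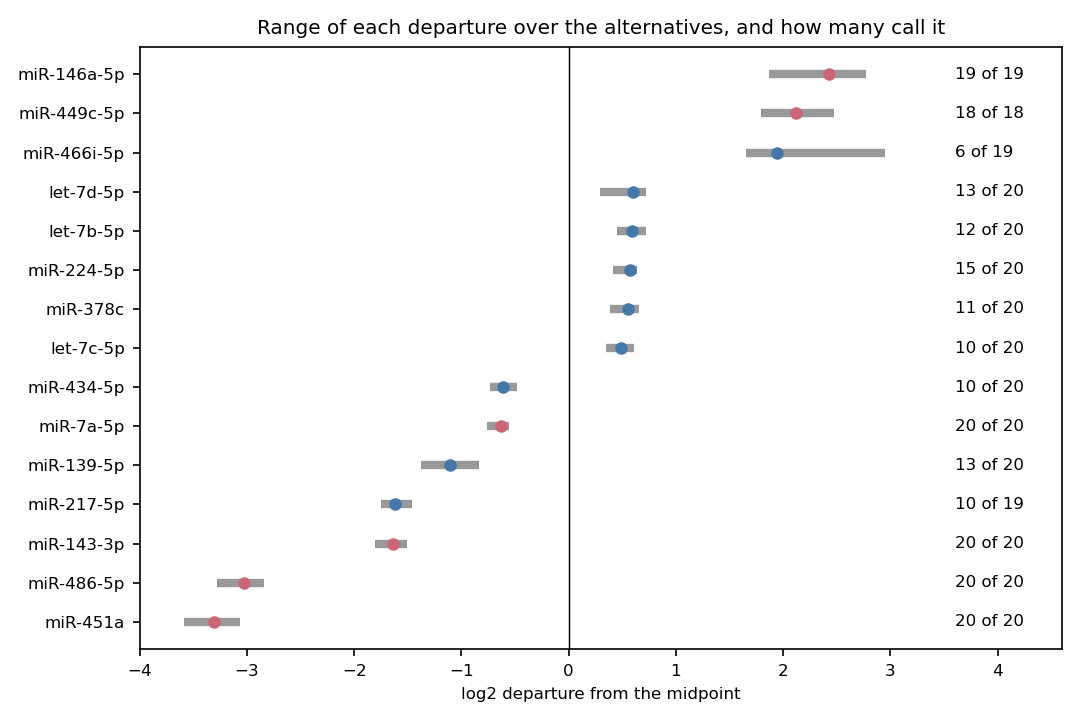
Grey bars give the range of each log2 departure over the alternative settings and dots the reported value, red where every alternative called the miRNA and blue otherwise, with the number of alternatives that called it at the right. No bar crosses 0, and miR-466i-5p was called in the fewest, 6 of 19.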

How the data were processed

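Small RNA libraries from 3 sorted populations were prepared by the submitters with a NEBNext kit, per the labels' protocols. The authors deposited raw read counts per miRNA row, 1 column per library. The submitters' processing notes list bcl2fastq 1.8.2, DESeq2 and build mm10; the aligner, the counter and the miRNA database release are not given in the sources used here. Of 1433 rows, 1211 carried a database identifier and 222 did not; the latter were left out. For each of 1059 mature names the row with the largest total was kept, since the lowest and highest total of repeated rows had a median ratio of 0.9986. Names with at least 50 counts that differed by at most 2% were merged (7 groups), leaving 1052 miRNAs, of which 560 had a count. Most named arms were 5p (780, against 108 of 3p). Intervals follow from the fit and include the spread between these libraries. The floor of 3 counts (0.772 to 3.93 CPM) covers counting error only, and PCR reads are not independent molecules.

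edgeR 4.0.16 in R 4.3.3 was used with filterByExpr, TMM, glmQLFit and glmQLFTest, all 9 libraries and no covariate, and the contrast 1, -0.5, -0.5. The filter kept 188 miRNAs with 99.97% of counts; the threshold was an adjusted p of 0.05. The test was also run on simulated counts with known changes, and no result given here rests on that run. SEs follow from the log2 value and its F statistic. Alternatives used DESeq2 1.42.0, limma 3.58.1, other scalings, filters and rows, a replicate block and the omission of each library. Named miRNAs were those called with at least 100 CPM in a population (up to 10 each way), those outside both ends, the 5 most abundant, those at 100 CPM or more with separate differentiating libraries, and called or nearest members of fixed lists. Members and lists were chosen with earlier results of these data known.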

Additional observations from a re-analysis of the deposited data

Results flagged for a closer look

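Of the 222 rows without a database identifier, which entered no comparison, 46 exceeded 3 counts, the number that a count of 0 allows, in 1 or more differentiating libraries, and 10 exceeded it in all 3.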

How the results depend on the processing

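The number of miRNAs away from the midpoint, 15, became 27 with DESeq2's test, 26 with every row with a database id (19 distinct names), 6 with the rows without a database id included, 8 with total counts and 8 when at least 2-fold was required. Leaving out 1 library at a time gave 7 to 18, the lowest without proliferating replicate 3. Also below 15 by more than 1.5 times were the counts without neuron replicate 1 (8) and without differentiating replicate 1 (9). The number above, 8, became 14, 15, 2, 3 and 3 in the same order of settings and 3 with total counts without miR-9-5p, and ran from 3 to 12 with 1 library left out. The number below, 7, became 13 with DESeq2's test, 11 with every row, 4 with the rows without a database id, 12 with limma and 12 with total counts without miR-9-5p, and ran from 4 to 10 with 1 library left out. The cause of these shifts was not tested. miR-142a-5p, at 0.03 with 0 counts in all neuron libraries, was at -1.13 (adjusted p = 0.0276) with limma, the 1 call with the opposite sign; the cause was not tested. Without a call, signs also varied near 0: the sign was kept in 13 of 19 alternatives by miR-142a-5p, in 16 of 20 by let-7g-5p, in 18 of 20 by let-7e-5p and in 19 of 20 by miR-9-5p. With DESeq2, 4 of the 15, miR-146a-5p, miR-217-5p, miR-449c-5p and miR-466i-5p, had no adjusted p, and the other 11 were called.

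The number higher than both ends, 1, was not stable: it was 0 at a filter of 10 CPM, which removes miR-449c-5p, and with the rows without a database id; 2 with DESeq2 size factors, with near-identical names kept apart and with total counts; 3 with DESeq2's test; 7 with every row; and 5 with no filter. It ran from 0 to 6 with 1 library left out, 0 without proliferating replicate 1 and 6 without proliferating replicate 2. The number lower than both ends, 1, became 4 with every row and 2 with near-identical names kept apart, where repeated rows count separately, and stayed at 1 with each library left out.

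Replicate numbers shared by the populations were not taken as pairs, and the labels do not say whether they mark pairs. Deviations of same-numbered libraries correlated at 0.021 to 0.254 where 1 was a differentiating library. Between proliferating and neuron libraries of the same number they correlated at -0.068 to -0.061. Differently numbered libraries correlated at -0.256 to 0.121, and the own number correlated best in 10 of 18 cases. With the replicate number as a block 14 miRNAs were called, 11 of them among the 15 (not let-7c-5p, miR-139-5p, miR-434-5p and miR-466i-5p), and 3 were higher than both ends. At 3 counts per library, levels under 0.772 to 3.93 CPM could not be resolved.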
